A study of Rattus norvegicus with 45 samples.

Results

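The genes described here are 4 genes of the oligodendrocyte lineage, Olig1 (ENSRNOG00000028648), Sox10 (ENSRNOG00000011305), Gpr17 (ENSRNOG00000025745) and Cspg4 (ENSRNOG00000017208). They were chosen by name, with earlier results of these data known and from genes that could be named here, and are 4 of the 32883 genes in the deposited values. All 4 were among the 22570 genes tested, which lay above the lowest value in at least 7 rats. The study asked how loss of a dopamine mark on histone H3 alters gene expression in the ventral tegmental area (VTA), the midbrain region that holds dopamine neurons, during abstinence from heroin. Male wild-type Sprague-Dawley rats self-administered saline or heroin for 10 d, received a vector into the VTA on day 11 and were killed after 30 d of abstinence. The vectors were an empty GFP control, wild-type histone H3.3 (H3.3 WT), and H3.3Q5A, in which glutamine 5 is replaced by alanine so that it cannot be dopaminylated. The study's text calls them AAV vectors, while the series description names a lentiviral vector. The 6 groups were saline empty (n = 7), saline H3.3 WT (n = 7), saline H3.3Q5A (n = 7), heroin empty (n = 8), heroin H3.3 WT (n = 7) and heroin H3.3Q5A (n = 8). Every group, saline empty included, had surgery and a virus, and the tissue was a 2 mm punch taken under GFP fluorescence. Such a punch holds glia, vessels and neurons together, so that fewer oligodendrocyte lineage cells and less RNA per cell cannot be told apart.

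Oligodendrocytes wrap axons in myelin and arise from oligodendrocyte precursor cells (OPCs), which persist and divide in the adult brain. Sox10 and the bHLH factors Olig1 and Olig2 are transcription factors that specify the lineage and later drive myelin genes, and they stay expressed in mature cells. Cspg4 encodes the NG2 proteoglycan of OPCs, which pericytes of brain vessels also carry, and Gpr17 encodes a receptor that appears transiently in committed precursors before they myelinate.

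In rn6, the build of the deposited values, Olig1 lies on chromosome 11 from 31428357 to 31430517 on the forward strand. The end of Olig2, its neighbour, is 35.5 kb before that start. Sox10 lies on chromosome 7 from 120393253 to 120403523 on the reverse strand, Gpr17 on chromosome 18 from 24734329 to 24735349 on the reverse strand, and Cspg4 on chromosome 8 from 61532464 to 61567510 on the forward strand. All 4 are annotated as protein-coding. RefSeq promoters of build GRCr8 were at hand for 2 of the 4 genes, Gpr17 and Cspg4. These 2 are shown because they were at hand, and control of either gene by Sox10 was not tested. Each is the 250 bases before the gene's start, 5′ to 3′ on the gene's strand, at chr18:23857382-23857631 (reverse strand) and chr8:66160692-66160941 (forward strand). Capitals mark a match to a SOX motif, ACAANG on either strand.
Gpr17: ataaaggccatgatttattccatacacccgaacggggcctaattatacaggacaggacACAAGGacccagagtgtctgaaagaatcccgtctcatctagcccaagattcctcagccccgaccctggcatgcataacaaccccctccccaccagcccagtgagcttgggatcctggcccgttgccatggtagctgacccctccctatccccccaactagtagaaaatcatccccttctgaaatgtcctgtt
Cspg4: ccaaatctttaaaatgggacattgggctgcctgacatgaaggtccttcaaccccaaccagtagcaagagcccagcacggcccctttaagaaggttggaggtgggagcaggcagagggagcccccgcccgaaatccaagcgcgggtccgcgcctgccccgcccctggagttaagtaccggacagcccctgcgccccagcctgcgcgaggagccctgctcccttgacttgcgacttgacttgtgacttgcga
The Gpr17 promoter held 1 such match, whose first base is at -192 from the gene's start, and the Cspg4 promoter held none. A match to this motif was present in 36.9% of 33469 RefSeq promoters of the same length. Neither promoter held an E-box (CANNTG, the motif of bHLH factors, searched on both strands with overlap between motifs allowed), which 65.5% of the promoters held. GC content was 53.2% in the Gpr17 and 62.0% in the Cspg4 promoter.

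The libraries were polyA-selected, 1 per rat, and the deposited values are variance-stabilized counts (VST) on a log2-like scale. Undoing the transformation returned whole reads, from 24308953 to 71104049 on genes per library. Behind the values stood 5301 to 22787 reads per rat for Olig1, 2141 to 12341 for Sox10, 578 to 2785 for Gpr17 and 1178 to 3811 for Cspg4, so counting error is small beside the spread between rats. The deposited values carry no gene names, and names were read from a part of the study's supplementary table whose rows run by how far H3.3 WT departs from the empty vector after saline. In that comparison the 1998 named genes lie at a median percentile of 5.0 by p among all genes tested. The difference between these groups is therefore given below as a description only. Other differences from saline empty or saline H3.3 WT rats share those libraries. The VTA label could not be checked, as none of 12 listed dopamine neuron markers was named.

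By group mean, Olig1 was lowest in saline empty and highest in saline H3.3Q5A rats. Its lowest, median and highest values were 12.8, 13.14 and 13.72 in saline empty and 13.13, 13.47 and 14.05 in heroin empty rats. With H3.3 WT they were 13.38, 13.68 and 14.23 after saline and 13.31, 13.81 and 14.12 after heroin. With H3.3Q5A they were 13.65, 13.79 and 14.1 after saline and 12.91, 13.21 and 13.72 after heroin. The saline H3.3Q5A rats were the most alike, at 13.83 ± 0.149 (SD, n = 7), against 13.27 ± 0.282 (SD, n = 8) in heroin H3.3Q5A rats, and only the highest heroin rat reached into the saline range. In normalized reads, the H3.3Q5A medians were 14060 after saline and 9400 after heroin.

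**Figure D1:**
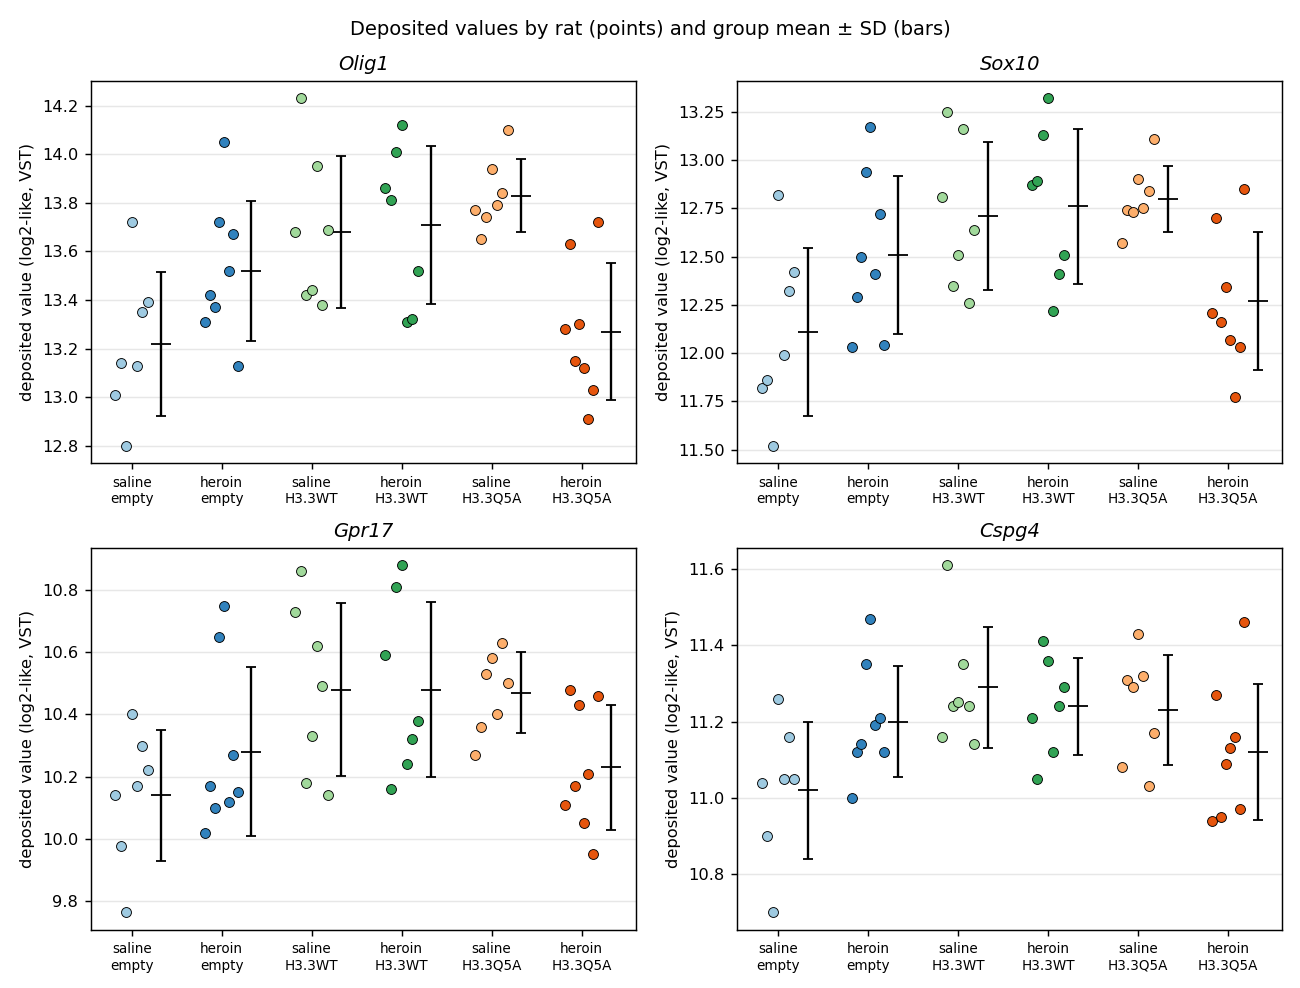
Deposited values (log2-like, y axis, scaled to each gene) of Olig1, Sox10, Gpr17 and Cspg4 by group (x axis), with 1 point per rat and bars for the group mean ± SD. Within the H3.3Q5A vector the heroin rats sit below the saline rats for Olig1, with means of 13.27 and 13.83, and the ranges overlap in every panel.

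Sox10 followed the same order of group means as Olig1. Its lowest, median and highest values were 11.52, 11.99 and 12.82 in saline empty and 12.03, 12.45 and 13.17 in heroin empty rats. With H3.3 WT they were 12.26, 12.64 and 13.25 after saline and 12.22, 12.87 and 13.32 after heroin. With H3.3Q5A they were 12.57, 12.75 and 13.11 after saline and 11.77, 12.18 and 12.85 after heroin. The H3.3Q5A means were 12.8 ± 0.17 (SD, n = 7) after saline and 12.27 ± 0.357 (SD, n = 8) after heroin, with medians of 6797 and 4544 normalized reads. Of the 8 heroin rats, 6 lay below every saline rat of that vector.

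Gpr17, the receptor of committed precursors, varied less between groups. Its lowest, median and highest values were 9.76, 10.17 and 10.4 in saline empty and 10.02, 10.16 and 10.75 in heroin empty rats. With H3.3 WT they were 10.14, 10.49 and 10.86 after saline and 10.16, 10.38 and 10.88 after heroin. With H3.3Q5A they were 10.27, 10.5 and 10.63 after saline and 9.95, 10.19 and 10.48 after heroin. Within H3.3Q5A the ranges overlapped, and 5 of 8 heroin rats lay below every saline rat.

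Cspg4, the NG2 proteoglycan gene, varied least. Its lowest, median and highest values were 10.7, 11.05 and 11.26 in saline empty and 11.0, 11.17 and 11.47 in heroin empty rats. With H3.3 WT they were 11.14, 11.24 and 11.61 after saline and 11.05, 11.24 and 11.41 after heroin. With H3.3Q5A they were 11.03, 11.29 and 11.43 after saline and 10.94, 11.11 and 11.46 after heroin. Of the 8 heroin H3.3Q5A rats, 3 lay below and 1 lay above every saline H3.3Q5A rat, so these groups were mixed.

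In all 4 genes the lowest mean was that of saline empty rats, followed by heroin H3.3Q5A and heroin empty rats. For Olig1 and Sox10 the order then ran through saline H3.3 WT and heroin H3.3 WT to saline H3.3Q5A. For Gpr17 and Cspg4 the same 3 groups were highest in another order, with gaps between neighbours of at most 0.0126 for Gpr17 and 0.0447 for Cspg4. From the lowest to the highest group mean, the difference was 0.613 for Olig1 (1.53-fold), 0.698 for Sox10 (1.62-fold), 0.348 for Gpr17 (1.27-fold) and 0.262 for Cspg4 (1.2-fold). The SD within groups was 0.282, 0.371, 0.235 and 0.157 in the same order of genes. Between groups lay 42.6% of the variance of Olig1, 36.0% of that of Sox10, 27.9% of that of Gpr17 and 25.6% of that of Cspg4. Saline empty and saline H3.3 WT rats enter the order of the table of names. The lowest place of saline empty rats, these spans and these shares are therefore not independent of how the genes came to be named. None of the neighbouring groups in these orders differed beyond their spread: the widest such gap was 0.256, between heroin H3.3Q5A and heroin empty rats for Olig1 (standard error 0.135, adjusted p = 0.29 by limma with Benjamini-Hochberg adjustment).

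Heroin was compared with saline within each vector. DEx genes had an adjusted p under 0.05 in limma, after Benjamini-Hochberg adjustment over all genes tested, and a log2 fold change beyond 0.2. In H3.3Q5A rats Olig1 was a DEx gene and fell by 0.56 on the log2 scale after heroin (standard error 0.14, adjusted p = 0.0491, 0.676-fold), with all 8 rats under the mean of the saline group and 7 of them below every saline rat. It was 1 of the 4 genes, where 0.505% of all genes tested were DEx genes and 0.315% were DEx genes that fell. The call was at the edge of the threshold. It was made in 3 of 15 fits that each left out 1 rat, with adjusted p from 0.0098 without heroin H3.3Q5A rat 21 to 0.145 without heroin H3.3Q5A rat 25, although the log2 fold change stayed between -0.63 and -0.51. Over all genes, such fits called from 0 genes without saline H3.3Q5A rat 33 to 1462 without heroin H3.3Q5A rat 21, against 114 with all rats. With the log2 read total as a covariate it was -0.55 (adjusted p = 0.0757), and the median read total was 34513499 in saline and 45039583 in heroin H3.3Q5A rats.

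Sox10 differed by -0.54 in the same comparison (95% confidence interval -0.91 to -0.17, adjusted p = 0.0949), with 7 of 8 rats under the mean of the saline group, and did not pass the threshold. It passed without heroin H3.3Q5A rat 21, at -0.62 (adjusted p = 0.0322). Gpr17 differed by -0.23 (interval -0.47 to 0.00176, adjusted p = 0.256) and Cspg4 by -0.11 (interval -0.27 to 0.049, adjusted p = 0.454). The median of the 4 differences was -0.387, against 0.0101 over all genes tested.

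In empty vector rats the 4 genes were higher after heroin, and none passed the threshold. Olig1 differed by 0.30 (interval 0.022 to 0.59, adjusted p = 0.238), Sox10 by 0.41 (interval 0.036 to 0.78, adjusted p = 0.228), Gpr17 by 0.14 (interval -0.095 to 0.38, adjusted p = 0.57) and Cspg4 by 0.18 (interval 0.015 to 0.34, adjusted p = 0.228). Among all genes tested 0.155% were DEx genes in this comparison, or 35 genes, a count that ran from 0 without saline empty rat 42 to 1182 without saline empty rat 18. In H3.3 WT rats the differences were near 0, at 0.022 for Olig1 (interval -0.27 to 0.31), 0.053 for Sox10 (interval -0.33 to 0.44), 0.00399 for Gpr17 (interval -0.24 to 0.25) and -0.045 for Cspg4 (interval -0.21 to 0.12). None of the 4 was a DEx gene there, against 2.75% of all genes tested. The mean heroin effect over the empty and H3.3 WT vectors was 0.16 for Olig1, 0.23 for Sox10, 0.073 for Gpr17 and 0.066 for Cspg4, none a DEx gene (lowest adjusted p = 0.286, for Sox10), against 6.65% of all genes tested.

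Whether H3.3Q5A alters expression in heroin rats was addressed by comparison with each heroin control. Against heroin H3.3 WT, Olig1 differed by -0.44 (interval -0.72 to -0.15, adjusted p = 0.0709), with 7 of 8 H3.3Q5A rats below the control mean and 6 below every control rat. Sox10 differed by -0.50 (interval -0.87 to -0.13, adjusted p = 0.123), with 7 of 8 below the mean. Gpr17 differed by -0.25 (interval -0.49 to -0.0148, adjusted p = 0.25), with 8 of 8 below the mean, and Cspg4 by -0.12 (interval -0.28 to 0.041, adjusted p = 0.473), with 6 of 8. None passed the threshold, where 2.71% of all genes did, or 611 genes, a count that ran from 137 without heroin H3.3Q5A rat 25 to 1512 without heroin H3.3Q5A rat 21. Olig1 passed it in 4 of 15 fits without 1 rat, namely heroin H3.3 WT rats 3 and 9 and heroin H3.3Q5A rats 21 and 40, with adjusted p from 0.0216 to 0.217 over the 15. Sox10 passed it in 1 of 15, without heroin H3.3Q5A rat 21 (-0.58, adjusted p = 0.0446).

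Against heroin empty the differences were smaller, at -0.26 for Olig1 (interval -0.53 to 0.017, adjusted p = 0.29), -0.25 for Sox10 (interval -0.61 to 0.11), -0.045 for Gpr17 (interval -0.27 to 0.18) and -0.078 for Cspg4 (interval -0.23 to 0.077). None of the 4 was a DEx gene, and 3.21% of all genes were, or 724 genes, a count that ran from 141 to 1620 without those same rats 25 and 21. Between the 2 heroin controls, H3.3 WT was above empty by 0.18 for Olig1, 0.25 for Sox10, 0.21 for Gpr17 and 0.041 for Cspg4 (adjusted p from 0.863 to 0.95). In that comparison limma called 0% of all genes, with 1277 genes at an unadjusted p under 0.05, 0 called by voom on the reads and 195 called with 3 residual factors in the model. These comparisons share the heroin H3.3Q5A or the control rats, so their values are not independent of each other.

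**Figure D2:**
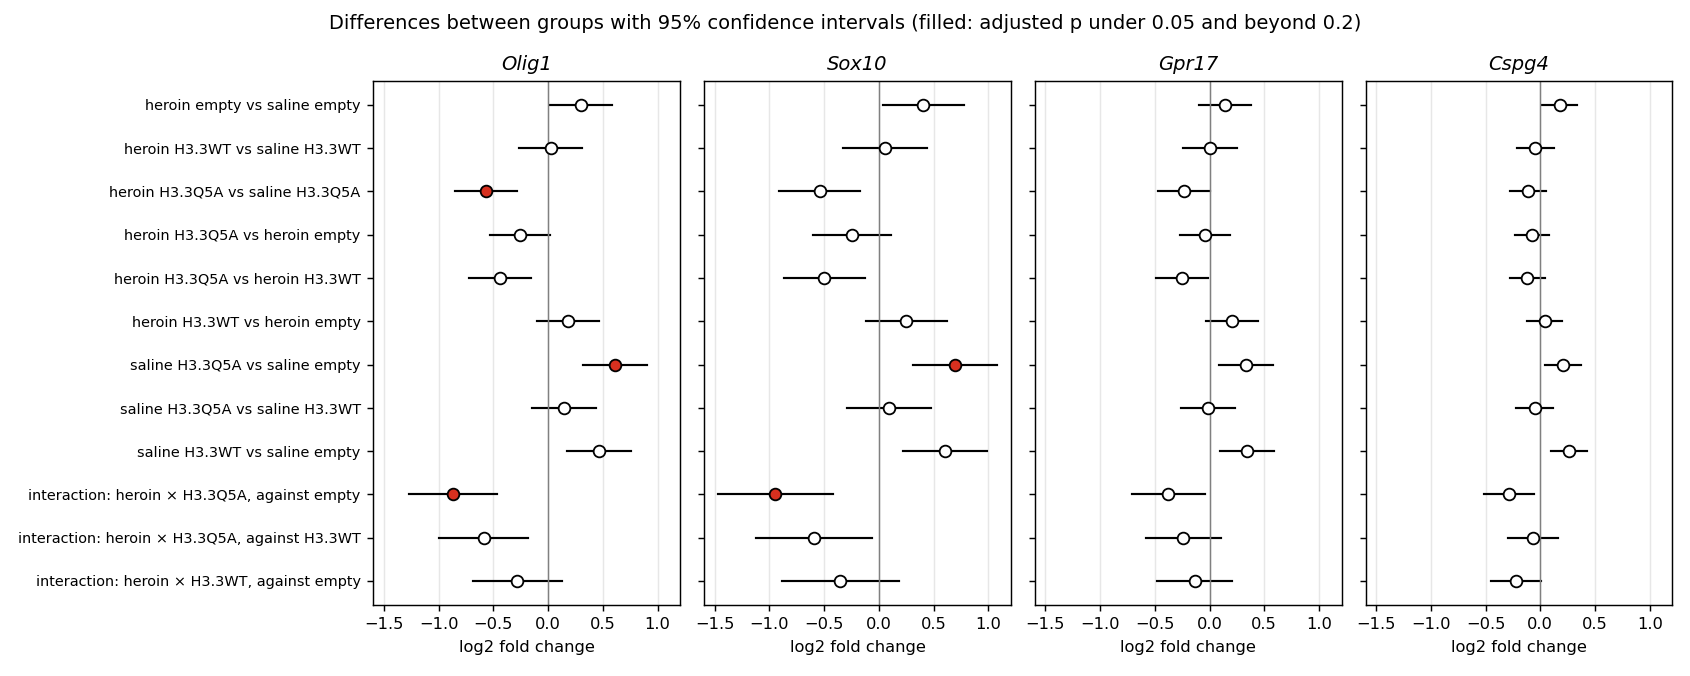
Log2 fold changes (x axis) with 95% confidence intervals for each gene (panels) in 9 comparisons of groups and 3 interactions (y axis), with filled points for DEx genes. Olig1 is filled in 3 rows, at -0.56, 0.61 and -0.87, Sox10 in 2 rows, at 0.70 and -0.94, and no row of Gpr17 or Cspg4 is filled. The row of saline H3.3 WT vs. saline empty is a description only. That difference ordered the table of names, so its intervals are not to be read as a test.

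In saline rats the 4 genes were higher with H3.3Q5A than with the empty vector. Olig1 rose by 0.61 (standard error 0.14, adjusted p = 0.0176, 1.53-fold) and Sox10 by 0.70 (standard error 0.19, adjusted p = 0.0277, 1.62-fold), each with 7 of 7 H3.3Q5A rats above the saline empty mean. Gpr17 differed by 0.33 (interval 0.087 to 0.58, adjusted p = 0.0875) and Cspg4 by 0.21 (interval 0.044 to 0.38, adjusted p = 0.11), also with 7 of 7 rats above that mean. So 2 of 4 were DEx genes, where 4.94% of all genes were and 3.23% were DEx genes that rose. The saline empty rats also enter the ordering by which genes could be named, so these 2 calls are not independent of how the genes came to be named. Olig1 lost the call without saline empty rat 22 (adjusted p = 0.0545) or saline H3.3Q5A rat 28 (adjusted p = 0.0533). Sox10 lost it in 6 of 14 such fits, without saline empty rats 15, 22, 41 or 42 or saline H3.3Q5A rats 28 or 32, with adjusted p from 0.0512 to 0.0828. Without saline empty rat 18, the highest of its group for all 4 genes, all 4 were DEx genes.

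Saline H3.3Q5A and saline H3.3 WT rats were close, with differences of 0.15 for Olig1 (interval -0.14 to 0.44), 0.095 for Sox10 (interval -0.29 to 0.48), -0.0126 for Gpr17 (interval -0.26 to 0.23) and -0.052 for Cspg4 (interval -0.22 to 0.11). None was called, where 0.00886% of all genes were, or 2 genes, a count that ran from 0 without saline H3.3 WT rat 50 to 631 without saline H3.3 WT rat 27. After saline, H3.3 WT rats lay above saline empty rats by 0.46 for Olig1, 0.60 for Sox10, 0.34 for Gpr17 and 0.26 for Cspg4, with 7 of 7 rats above the saline empty mean for each gene. That difference ordered the table of names and is given without a test. In it limma called 0% of all genes, with 3788 at an unadjusted p under 0.05, 0 called by voom and 1927 called with 3 residual factors in the model.

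The heroin effect was then compared between vectors. It was lower in H3.3Q5A than in empty vector rats by 0.87 on the log2 scale for Olig1 (estimate -0.87, standard error 0.20, adjusted p = 0.00378) and by 0.94 for Sox10 (estimate -0.94, standard error 0.26, adjusted p = 0.0117). For Gpr17 the estimate was -0.38 (interval -0.71 to -0.042, adjusted p = 0.121) and for Cspg4 -0.29 (interval -0.52 to -0.061, adjusted p = 0.0772). Thus 2 of 4 genes passed the threshold, where 14% of all genes did and 7.03% did with a negative sign. After centring each library on its median, all 4 passed (Gpr17 -0.50, adjusted p = 0.0295, and Cspg4 -0.41, adjusted p = 0.0096), with the median of all genes at -0.102 instead of 0.0186. Olig1 and Sox10 passed it in 30 of 30 fits that each left out 1 rat, with adjusted p up to 0.00893 for Olig1 and 0.0251 for Sox10. Cspg4 passed it in 2 of these, without saline empty rat 18 (adjusted p = 0.0369) or heroin H3.3Q5A rat 21 (adjusted p = 0.0249). Of markers of other cell types, the microglia gene Cx3cr1 (-0.50, adjusted p = 0.0369) and the meningeal gene Col1a1 (1.56, adjusted p = 0.0356) passed as well. The 2 pituitary markers named were at 1.46 and 2.71 (adjusted p = 0.135 and 0.0628) and did not pass. The part of these cell types in the result was not tested. This interaction contains the saline empty rats as well, so the order of the table of names bears on it.

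Against the H3.3 WT vector the same interaction was -0.59 for Olig1 (interval -0.99 to -0.18, adjusted p = 0.0628), -0.59 for Sox10 (interval -1.12 to -0.06, adjusted p = 0.176), -0.24 for Gpr17 (interval -0.58 to 0.10) and -0.067 for Cspg4 (interval -0.30 to 0.16). None passed the threshold, where 7.93% of all genes did, 4.75% with a positive and 3.19% with a negative sign. Of the lists described below, 12 of 17 named myelinating genes, 1 of 6 lineage factors and 1 of 3 inhibitors of maturation passed with a negative sign. Passing with a positive sign were 4 of 6 pericyte and smooth muscle, 1 of 3 endothelial and 1 of 2 pituitary, ependymal and choroid markers. Col1a1, the 1 meningeal marker named, passed at 2.82. Their part in the result was not tested. This interaction contains the saline H3.3 WT rats, so the order of the table of names bears on these counts as well. The named genes lie at a median percentile by p of 45.4 in it. The interaction of heroin and H3.3 WT against empty was -0.28 for Olig1 (interval -0.69 to 0.12), -0.35 for Sox10 (interval -0.89 to 0.18), -0.14 for Gpr17 (interval -0.48 to 0.20) and -0.22 for Cspg4 (interval -0.45 to 0.0102). For it limma called 0% of all genes, with 1137 at an unadjusted p under 0.05, 0 called by voom and 356 called with 3 residual factors in the model.

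Apart from the group means, the 4 genes moved together from rat to rat. Over the 44 rats, after subtraction of each group's mean, Olig1 and Sox10 correlated at r = 0.967 (rho = 0.953). Sox10 correlated with Gpr17 at r = 0.796 (rho = 0.752) and with Cspg4 at r = 0.689 (rho = 0.584), Olig1 with Gpr17 at r = 0.77 (rho = 0.732) and with Cspg4 at r = 0.665 (rho = 0.544), and Gpr17 with Cspg4 at r = 0.733 (rho = 0.691). Each r had a permutation p of 1e-05, the smallest that 100000 resamples can give, and an adjusted p of 1.67e-05 over the 10 relations computed. For the rho values the permutation p ranged from 1e-05 to 0.00027 and the adjusted p from 3.33e-05 to 0.00045. Without the 2 rats farthest from the median of the first gene, r stayed between 0.583 and 0.965. The genes of a rat share a library and a punch. Some other genes were closer to Sox10, Gpr17 or Cspg4 than the rest of the 4 were, as given below. Moving together is therefore not particular to the 4 genes. With the log2 read total none of the 4 relations passed, at r from -0.076 for Olig1 to 0.103 for Gpr17 and rho from -0.0736 to 0.113 (permutation p from 0.501 to 0.895, adjusted p from 0.715 to 0.895; without the 2 rats farthest from the median, r from -0.07 to 0.115).

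In 25 of the 44 rats all 4 genes lay on the same side of their group's means, 12 above and 13 below, and in 41 Olig1 and Sox10 did. Single rats carried the extremes of several genes. In saline empty rats, rat 18 was highest and rat 22 lowest for each of the 4 genes. Heroin empty rat 7 and saline H3.3 WT rat 49 were also highest in their groups for each gene, and heroin H3.3Q5A rat 21 and heroin H3.3 WT rat 11 for 3 of them.

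**Figure D3:**
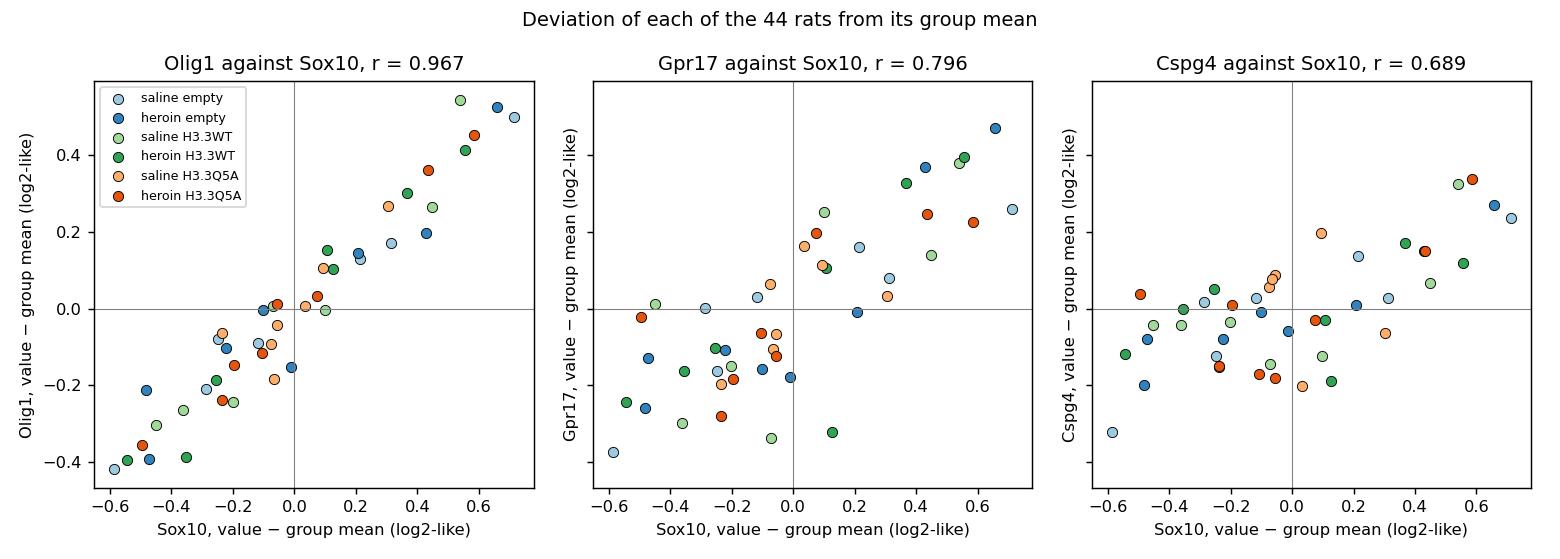
Deviation from the group mean (log2-like) of Olig1, Gpr17 and Cspg4 (y axes) against that of Sox10 (x axis), with 1 point for each of 44 rats, coloured by group. Olig1 lies along a narrow line (r = 0.967), while Gpr17 (r = 0.796) and Cspg4 (r = 0.689) scatter more widely.

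Likeness was measured by the same r over 44 rats between each gene and all genes tested, and the most like of those that could be named are given. Sox10 ranked first for Olig1, followed by Ddr1, a collagen receptor, at 0.959 and Cdc42ep1 at 0.955. For Sox10 they were Ddr1 at 0.975, Rhog at 0.97 and Mvb12b at 0.968. For Gpr17 they were Pigq at 0.841, Slc35f6 at 0.834 and Mvb12b at 0.831, behind ENSRNOG00000003948 at 0.869, which has no name here. For Cspg4 they were Pskh1 at 0.769 and the endothelial genes Esam at 0.76 and Tie1 at 0.758. Thus the leading genes of Cspg4 included vessel genes, and those of Olig1 and Sox10 did not.

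The other genes of the lineage were taken from lists, of which only some members could be named. Of 13 listed lineage transcription factors 6 were named. In H3.3Q5A rats all 6 lay lower after heroin, by 0.30 to 0.56 with a median of -0.518, and Olig1 was the 1 DEx gene. Olig2, the partner of Olig1, differed by -0.50 (adjusted p = 0.0532) and Myrf, which switches on myelin genes, by -0.56 (adjusted p = 0.0706). Nkx2-2, a factor of early differentiation, differed by -0.30 (adjusted p = 0.252) and Zeb2, a repressor of inhibitory signals, by -0.31 (adjusted p = 0.173). Of 22 myelinating oligodendrocyte genes 17 were named, and all 17 were lower, by 0.20 to 0.67 with a median of -0.577, none of them a DEx gene. Among them Mobp, a myelin structural protein, differed by -0.65 (adjusted p = 0.0555) and Cntn2, an adhesion molecule of myelinated axons and their glia, by -0.42 (adjusted p = 0.0571).

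The named precursor genes (3 of 14) had a median of -0.066, with Matn4, a matrix protein of OPCs, at -0.066 (adjusted p = 0.757) beside Cspg4. The named genes of committed precursors (3 of 8) had a median of -0.233, with Enpp6 at -0.23 (adjusted p = 0.504) and Bmp4 at -0.054 (adjusted p = 0.855) beside Gpr17. Of 8 inhibitors of maturation 3 were named, Id2 at 0.092, Lingo1 at -0.00316 and Gpr37 at -0.54 (adjusted p = 0.0613). Gpr37, a receptor of maturing oligodendrocytes that restrains them, thus had a difference near that of Olig1 and Sox10. The median over all genes tested was 0.0101.

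The same lists were read in the comparisons that share these or the control rats. In saline H3.3Q5A vs. saline empty rats 6 of 6 lineage factors and 14 of 17 myelinating genes rose, with medians of 0.602 and 0.658, where 3.23% of all genes rose. None of the precursor (0 of 3, median 0.21) and committed precursor genes (0 of 3, median 0.331) passed the threshold, and of the inhibitors Gpr37 did, at 0.64 (adjusted p = 0.0207). Where the heroin effect of H3.3Q5A was set against that of the empty vector, 5 of 6 lineage factors and 16 of 17 myelinating genes passed with a negative sign (medians -0.842 and -1.04), as 7.03% of all genes did, and of the inhibitors Gpr37 did. Both comparisons contain the saline empty rats, and the named genes lie at a median percentile by p of 19.0 in the first and 33.3 in the second, so these counts depend on which genes could be named. None of the 3 precursor genes (median -0.245) or the 3 of committed precursors (median -0.376) did. Medians over all genes tested were -0.0115 and 0.0186. Between heroin H3.3Q5A and heroin H3.3 WT rats 0 of 6 lineage factors and 3 of 17 myelinating genes passed, all lower, with Opalin at -0.69 (adjusted p = 0.0291), and of the inhibitors Gpr37 did, at -0.58 (adjusted p = 0.0327), where 2.71% of all genes passed and 0.687% fell. The genes vary together, and a difference between lists was not tested.

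**Figure D4:**
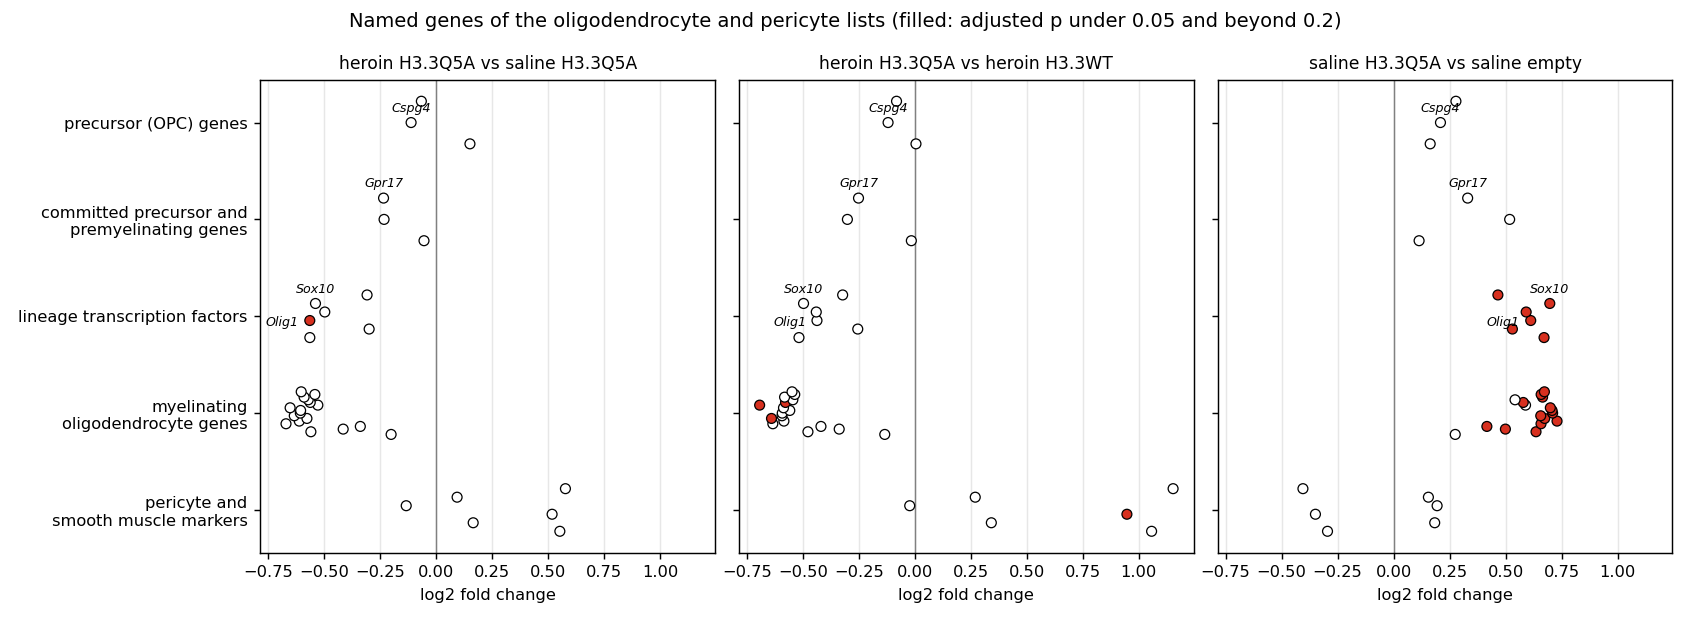
Log2 fold changes (x axis) of each named gene of 5 lists (y axis) in 3 comparisons (panels), with filled points for DEx genes and the names of Olig1, Sox10, Gpr17 and Cspg4. In heroin vs. saline H3.3Q5A rats the 17 myelinating genes lie between -0.67 and -0.20 and Cspg4 lies at -0.11.

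Markers of other cell types that the punch can hold were read in the same way. Since Cspg4 also marks pericytes, 12 pericyte and smooth muscle markers were listed, of which 6 were named. Their summed normalized reads ranged from 5720 to 9766 in saline and from 5487 to 14378 in heroin H3.3Q5A rats. In that comparison 5 of 6 were higher, none a DEx gene, with a median of 0.341. In heroin vs. saline H3.3 WT rats 4 of 6 fell, among them Acta2 (-1.70, adjusted p = 0.0033), Des (-1.44, adjusted p = 0.00292) and the pericyte receptor gene Pdgfrb (-0.38, adjusted p = 0.0435), where 2.45% of all genes fell, while Cspg4 was at -0.045 there. The saline H3.3 WT rats enter the order of the table of names, so these falls are not independent of which genes could be named. After saline, all 6 were higher with H3.3 WT than with the empty vector. The sum of the 17 myelinating genes ranged from 950031 to 1414565 in saline and from 491284 to 1213689 in heroin H3.3Q5A rats, and from 578596 to 1293119 in saline empty rats. The 1 meningeal marker named, Col1a1, ranged from 467 to 1689 normalized reads in saline and from 831 to 8277 in heroin H3.3Q5A rats. The 2 pituitary, ependymal and choroid markers named summed to 17 to 9155 reads in saline empty and 16 to 746 in saline H3.3Q5A rats, with 1 of them at 0 in some rat. No other named marker was at 0 in any rat.

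Of Schwann cell markers 2 of 8 were named, at -0.28 and -0.17 in heroin vs. saline H3.3Q5A rats and with sums of 2644 to 5706 over all groups. Of endothelial markers 3 of 8 were named, with sums of 1969 to 4471, and Esam rose by 0.31 in saline H3.3Q5A vs. saline empty rats (adjusted p = 0.0394). Cdh5 and Kdr rose in heroin H3.3Q5A vs. heroin empty rats, by 0.52 (adjusted p = 0.0274) and 0.43 (adjusted p = 0.026), and Cdh5 fell after heroin in H3.3 WT rats (-0.52, adjusted p = 0.0426). That fall is measured from the saline H3.3 WT rats, so it is not independent of which genes could be named. The 1 of 10 microglia markers named, Cx3cr1, rose by 0.49 in saline H3.3Q5A vs. saline empty rats (adjusted p = 0.0201). It had 809 to 1125 normalized reads in saline empty and 1136 to 1827 in saline H3.3Q5A rats. Of general neuron markers 2 of 10 were named, with sums of 16450 to 29812, and of 10 astrocyte markers none was. The part of these cell types in the values of Olig1, Sox10, Gpr17 and Cspg4 was not tested.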

How the data were processed

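The VTA of 44 rats, in 6 groups, was sequenced as polyA-selected libraries (Illumina TruSeq V2), with reads of 2 flow cells joined. Per the labels and the study's methods, the authors aligned reads with HISAT2 2.1.0 to Rnor_6.0 (rn6, Ensembl 90), counted them with featureCounts 2.0.1 and transformed them with DESeq2 2.11.40.6. The deposited values are therefore variance-stabilized and log2-like, scaled by size factors, with 5.733845893 standing for a count of 0. The methods also name a correction by residual factors (RUVr), whose number is not given in the sources used here, and the deposited values were used without it. One further library, of rat 48, carries labels that name 2 vectors and entered no comparison.

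Values were tested with limma 3.58.1 (R 4.3.3, trended variance, 1 mean per group) on the 22570 genes whose value exceeded the lowest one in 7 or more libraries, with Benjamini-Hochberg adjustment, an FDR of 0.05 and a log2 fold change beyond 0.2 over 13 comparisons. A fold change on this scale slightly understates that of low genes. Undoing the transformation gave whole reads (tolerance 0.1) for every library, used for depth and for voom. The fit was tested on simulated data. Correlations used 100000 permutations (scipy 1.17.1). Intervals are at 95%. Each library is 1 rat. Names came from the 1998 readable rows of the study's table. Authors' test columns were not used. The 4 genes, the other gene lists and the tests were chosen with earlier results of these data known. Genes named in the text were the 4 genes, up to 4 members of each list with the lowest p in a comparison and, for each of the 4, the 3 named genes most like it. Nkx2-2 and Zeb2 were added after their values were seen. Alternatives changed the filter, scaling, residual factors, samples in the fit, weights, read total, tool, FDR and each rat. One member of the precursor list is not reported here by name.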

Additional observations from a re-analysis of the deposited data

Results flagged for a closer look

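The heroin effect on Olig1 and Sox10 differed between the H3.3Q5A and the empty vector by a direct test of that difference. For Olig1 the interaction was -0.87 on the log2 scale (limma, adjusted p = 0.00378), from a heroin difference of -0.56 with H3.3Q5A and 0.30 with the empty vector. For Sox10 it was -0.94 (adjusted p = 0.0117), from -0.54 and 0.41. In the same interaction the microglia marker Cx3cr1 was at -0.50 (adjusted p = 0.0369) and the meningeal marker Col1a1 at 1.56 (adjusted p = 0.0356), and their part in it was not tested. Against the H3.3 WT vector neither gene passed, at -0.59 for Olig1 (limma, adjusted p = 0.0628) and -0.59 for Sox10 (adjusted p = 0.176). The interaction against empty contains the saline empty rats, and that against H3.3 WT contains the saline H3.3 WT rats. The order of the table of names therefore bears on both. Of 24 gene and group combinations tested for a rat far from the others, 0 were found, where chance gives 1.2.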

How the results depend on the processing

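No paired analysis was possible because a number names a rat only within its group, and compared groups share fewer than 2 numbers. Of the 4 genes, the number called for heroin vs. saline H3.3Q5A (1 as reported) was 0 without a filter on low values, with the read total as covariate or with voom (Olig1 adjusted p = 0.0772, 0.0757 and 0.0503), 2 with 1 residual factor, only the groups compared, array weights or an FDR of 0.1, and 3 with 3 residual factors. Between the H3.3Q5A and H3.3 WT groups of heroin rats (0) it was 1 with median centring, array weights or an FDR of 0.1, 2 with 1 and 3 with 3 residual factors. For the H3.3Q5A interaction against H3.3 WT (0) it was 1 with genes above the median, median centring, 1 residual factor, array weights or an FDR of 0.1, and 2 with 3 residual factors. For that against empty (2) it was 4 with median centring or 3 residual factors and 3 with 1 residual factor or an FDR of 0.1. No count is given for how H3.3 WT departs from the empty vector after saline, because that difference ordered the table of names. With 3 residual factors the number called was also 2 for heroin vs. saline with the empty vector. In heroin rats these factors gave 2 and 1 for H3.3Q5A and H3.3 WT against empty. In saline rats they gave 4 for H3.3Q5A against empty (2 as reported, 3 with 1 residual factor, only the groups compared or an FDR of 0.1). They gave 2 for the interaction of H3.3 WT and 1 for the mean heroin effect. The residual factors were computed from what remained after the group means, so they left the fold changes unchanged and lowered the error. In heroin vs. saline H3.3Q5A, Olig1 stayed at -0.564, with a limma adjusted p of 2.09e-10 with 3 factors. More calls with these factors follow from that step and add no support. The cause of the other changes was not tested.

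Without 1 rat the number called ranged from 0 to 2 for heroin vs. saline H3.3Q5A and for H3.3Q5A vs. H3.3 WT after heroin. It ranged from 0 to 4 for saline H3.3Q5A vs. empty. For the interactions of H3.3Q5A against empty and H3.3 WT it was 2 to 3 and 0 to 1. It was 0 in the other comparisons for which a count is given. Signs turned only near 0. In heroin vs. saline H3.3 WT, Cspg4 was 0.01883 with median centring, Olig1 -0.01533 with quantile normalization and Gpr17 -0.05823 with array weights and -8.769e-05 with voom, and without 1 rat Olig1 ranged from -0.04687 to 0.1128, Sox10 from -0.03948 to 0.1445, Gpr17 from -0.06143 to 0.06814 and Cspg4 from -0.07223 to 0.009633. In saline H3.3Q5A vs. H3.3 WT, Gpr17 was 0.04559 with median centring, 0.000115 with the read total and 0.03853 with rat 48 counted as H3.3 WT, and Cspg4 0.005863 with median centring, with ranges without 1 rat of -0.06956 to 0.05158 and -0.0844 to 0.002039. Gpr17 in heroin H3.3Q5A vs. empty ranged from -0.08275 to 0.02194. The r of read total was -0.127 with Sox10 and -0.00484 with Gpr17 when group means were kept.

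Median centring moved the share of all called genes that rose, from 43 of 114 to 115 of 977 for heroin vs. saline H3.3Q5A, from 728 of 1116 to 1072 of 1254 for saline H3.3Q5A vs. empty, from 456 of 611 to 384 of 1222 and from 545 of 724 to 470 of 2199 for H3.3Q5A vs. H3.3 WT and empty after heroin, from 1563 of 3149 to 815 of 4681 and from 1071 of 1790 to 767 of 3657 for the H3.3Q5A interactions against empty and H3.3 WT, from 13 of 35 to 651 of 780 and from 68 of 620 to 303 of 697 for heroin vs. saline with the empty and H3.3 WT vectors, and from 496 of 1500 to 1474 of 2196 for the mean heroin effect. Called genes over all genes ranged without 1 rat from 166 to 2204 for saline H3.3Q5A vs. empty, lowest without saline empty rat 22 and highest without rat 18. Olig1 and Sox10 passed in the interaction against empty under each alternative run (-0.99 to -0.73 and -1.06 to -0.88 apart from fits without 1 rat). With 7 or 8 rats per group, the spread between rats and not read depth limits the precision.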

Other observations

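The library of rat 48, whose title names H3.3Q5A and whose treatment label names H3.3 WT, had deposited values of 13.45 for Olig1, 12.39 for Sox10, 10.07 for Gpr17 and 11.25 for Cspg4.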
